A study of Mus musculus with 6 samples.

Results

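Immunoglobulin kappa variable (Igkv) segments were taken as the rows of the authors' deposited table whose symbol begins with Igkv and whose mean over all libraries was at least 5 normalized counts. The rule found 92 segments among 116 Igkv rows and 29322 genes. The table compares bulk RNA-seq of lung mesenchymal cells from adult Yeti+/- mice, which carry a gain-of-function allele of the interferon-gamma gene Ifng, with adult wild-type (WT) mice, with 3 libraries in each group. The cells were sorted as negative for the leukocyte protein CD45, the endothelial protein CD31, the epithelial protein Epcam and the dead-cell dye DAPI. Mice of both groups carry a label of tamoxifen injection, with no statement of the allele it acts on, and the extraction protocol names cultured cells. Neither point is settled here.

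A kappa light chain is encoded by a V segment, a J segment and the constant gene Igkc, which are brought together by DNA recombination in developing B cells. Each B cell and the plasma cells that descend from it therefore usually transcribe a single productive V segment, so a tissue's mixture of V segment transcripts reflects the antibody-making cells in it. In mouse the locus lies on chromosome 6, with V segments in both orientations upstream of Igkj1 to Igkj5 and Igkc. Segments are grouped into subfamilies by sequence, and the first number of a symbol is the subfamily number.

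The labelled cell type was visible in the table. All 10 mesenchymal marker genes of the list had a row and an adjusted p, and 0 were called by the authors' DESeq2 in either direction, with 1 gene higher at an unadjusted p under 0.05. Over all genes tested, 2.84% were called in either direction. Gsn, an actin-severing protein gene and the most abundant of them, had fitted levels of 606592 normalized counts in Yeti and 700752 in WT in the authors' deposited table. The leukocyte list was also present: Ptprc, the gene of CD45, had fitted levels of 5146 normalized counts in Yeti and 4597 in WT in the authors' deposited table, and 0 of the list's 5 genes were called by DESeq2 or passed an unadjusted p under 0.05. The mean normalized counts of the whole table summed to 26646632, of which the 92 kappa segments held 0.142%. The size factors ran from 0.946 to 1.002 in the Yeti libraries and from 0.952 to 1.09 in the WT libraries.

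The table gives no value per library, but its printed digits fix the reads behind many rows. Whole reads per library were recovered for 57 of the 92 segments and for 9059 of 9078 genes with a mean of 5 to 200. The libraries are named A, B and C within each group by falling size factor, since their replicate numbers are unknown. WT library C stood apart in reads of Dntt, Rag1 and Cd3e. Dntt, the terminal transferase of V(D)J joining, had 12, 50 and 44 reads in Yeti libraries A, B and C, against 42, 33 and 1068 in WT libraries A, B and C. Rag1, the recombinase gene, had 16, 42 and 72 reads in the Yeti libraries, against 67, 62 and 1081 in the WT libraries. Cd3e, a T cell receptor complex gene, had 87, 79 and 178 reads in the Yeti libraries, against 89, 104 and 429 in the WT libraries. The surrogate light chain genes of developing B cells showed no such excess. Vpreb1 had 5, 13 and 17 reads in the Yeti libraries, against 6, 12 and 14 in the WT libraries, and Igll1 had 5, 6 and 11 reads in the Yeti libraries, against 2, 20 and 9 in the WT libraries. Yeti library A stood apart in the other direction, with few reads of the recovered kappa segments, as described below. Ifng had 25, 27 and 20 reads in the Yeti libraries, against 7, 26 and 13 in the WT libraries, and the groups overlapped (adjusted p = 0.92, the authors' DESeq2).

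Kappa V segments were lower in the Yeti libraries across the family. Of 89 segments with an adjusted p, 31 fell and 0 rose at an adjusted p under 0.05 (the authors' DESeq2 Wald test, Benjamini-Hochberg over 20212 genes), which is 34.8% of those tested. Over all genes tested, 0.994% were called lower and 1.85% higher in the authors' deposited table. At an unadjusted p under 0.05, 53 segments were lower and 0 higher, against 4.0% of all genes tested that were lower. The fold change was below 0 for 87 of 92 segments and above 0 for 5. The median log2 fold change of the 92 segments was -1.73, against -0.001 over all genes tested, and the middle part of the segments, between the quartiles, ran from -2.40 to -1.12. In bulk samples fewer cells of a type and less RNA per cell cannot be told apart.

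All 31 segments called lower fell by at least 2-fold, 25 by at least 4-fold and 8 by at least 8-fold. The smallest SE of the family was 0.35, for Igkv5-48, so a fall of less than 2-fold could not have been called. The 58 segments not called were not centred on 0: their median log2 fold change was -1.40, 55 of them lay below 0 and 41 below -1. Their median standard error (SE) on the log2 scale was 0.90, against 0.54 for the called segments, and their median level was 134 normalized counts, against 565 for the called segments. Of the segments not called, 28 had an SE above 0.92, the largest SE of any called segment. The 3 remaining segments, Igkv3-3, Igkv3-10 and Igkv1-133, had no p-value in the authors' deposited table.

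**Figure D1:**
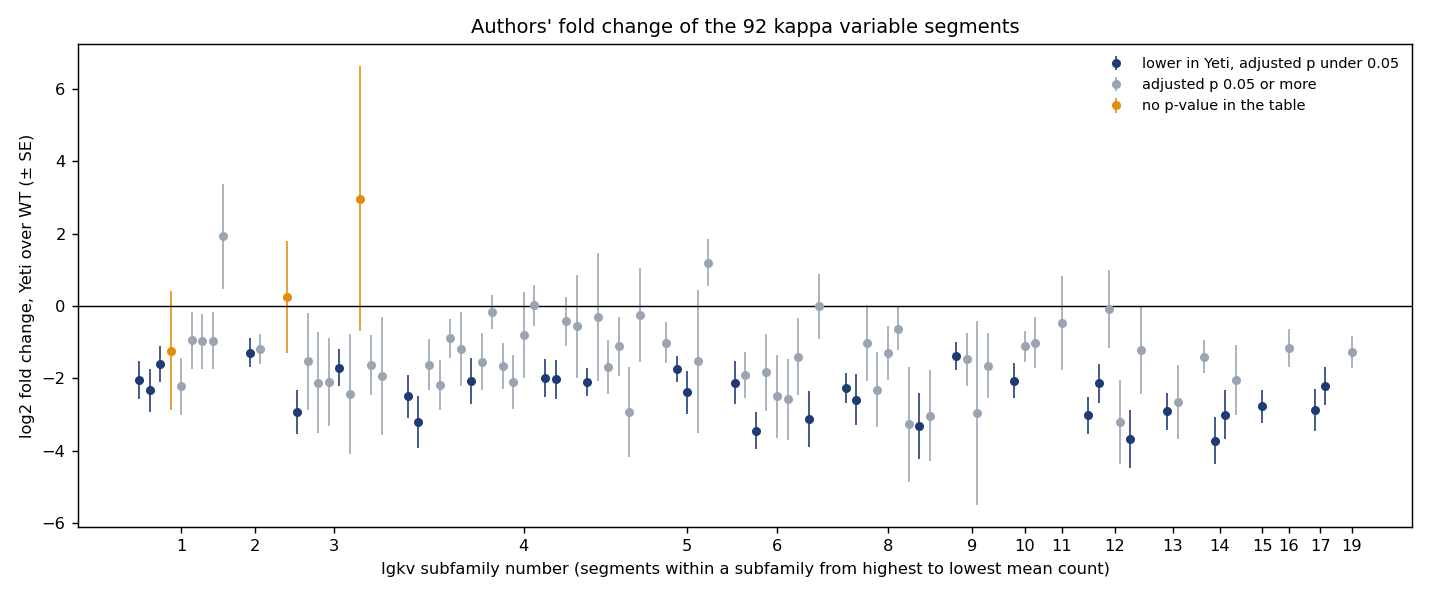
Log2 fold change, Yeti over WT, of the 92 kappa V segments in the authors' deposited table, with bars of 1 SE, grouped along the x axis by subfamily number and ordered within a subfamily by mean count. The 31 segments called lower (dark) lie below -1, most uncalled segments (grey) also lie below 0 with longer bars, and 3 segments without a p-value are orange.

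The most abundant segments by mean count were Igkv1-110 and Igkv1-117, both of subfamily 1. Igkv1-110 had fitted levels of 1004 normalized counts in Yeti and 4134 in WT in the authors' deposited table (log2 fold change -2.04 ± 0.52 SE, adjusted p = 0.00560, DESeq2). Igkv1-117 had 847 in Yeti and 4255 in WT in the authors' deposited table (-2.33 ± 0.59, adjusted p = 0.00507, DESeq2). Their V exons, which encode nearly all of the variable domain up to the third complementarity-determining loop, are 96.8% identical, so reads of these segments could be exchanged between them. The V exons are shown because the pair leads the family and fell by like amounts. The last 300 bases of each were read from the GENCODE M21 transcripts on GRCm38, chr6:68270968-68271267 and chr6:68121528-68121827, both on the plus strand, and capitals mark the 10 bases of each that differ from the other.
Igkv1-110: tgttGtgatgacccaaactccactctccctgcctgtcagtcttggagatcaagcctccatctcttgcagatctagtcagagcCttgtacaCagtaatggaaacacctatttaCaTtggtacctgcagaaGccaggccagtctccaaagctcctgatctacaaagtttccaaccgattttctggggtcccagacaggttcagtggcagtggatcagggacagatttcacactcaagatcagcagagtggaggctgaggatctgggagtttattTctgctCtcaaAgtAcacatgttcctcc
Igkv1-117: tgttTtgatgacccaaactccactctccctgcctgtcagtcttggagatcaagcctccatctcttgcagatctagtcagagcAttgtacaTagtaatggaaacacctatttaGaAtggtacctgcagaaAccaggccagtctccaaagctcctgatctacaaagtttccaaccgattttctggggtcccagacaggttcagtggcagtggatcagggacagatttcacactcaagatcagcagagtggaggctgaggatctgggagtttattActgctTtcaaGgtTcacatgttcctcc

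The next segments by abundance also had fold changes below 0, and 1 of the 10 was not called. Igkv1-135 had fitted levels of 1021 normalized counts in Yeti and 3095 in WT in the authors' deposited table, and its adjusted p of 0.0458 (DESeq2) was the closest of the 10 to the threshold among those that passed. Igkv10-96, Igkv6-15, Igkv17-127 and Igkv12-46 fell as well, with log2 fold changes of -2.06 ± 0.48, -2.12 ± 0.60, -2.87 ± 0.58 and -2.13 ± 0.54 (SE) in the authors' deposited table. Igkv6-23 stood at 551 normalized counts in Yeti and 2073 in WT in the authors' deposited table, and it was not called (-1.91 ± 0.63, adjusted p = 0.0751, DESeq2). Igkv6-32 had the smallest adjusted p of the family, with 185 in Yeti and 2011 in WT in the authors' deposited table (-3.44 ± 0.50, adjusted p = 1.65e-09, DESeq2), a level 10.9-fold higher in WT. Per kilobase of annotated exon, 9 of these 10 remained among the 10 highest, since the segments' exons span a narrow range of 284 to 404 bases.

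Igkv12-44 and Igkv12-41 are close in sequence and had different estimated fold changes. A difference between them was not tested, and at 96.3% V exon identity reads could be exchanged between them. Igkv12-44 had fitted levels of 293 normalized counts in Yeti and 2387 in WT in the authors' deposited table (-3.02 ± 0.52, adjusted p = 8.80e-07, DESeq2). Igkv12-41, chosen after its values were seen, had 355 in Yeti and 373 in WT in the authors' deposited table (-0.07 ± 1.08, adjusted p = 0.999, DESeq2), with an interval wide enough to include a large fall. Their V exons are 96.3% identical in a global alignment that allows gaps. They lie on the minus strand at chr6:69814631-69814928 and chr6:69858420-69858717, and capitals mark bases without a match in the other. Near the 3' end the alignment opens gaps, so the capitals there include bases opposite a gap.
Igkv12-44: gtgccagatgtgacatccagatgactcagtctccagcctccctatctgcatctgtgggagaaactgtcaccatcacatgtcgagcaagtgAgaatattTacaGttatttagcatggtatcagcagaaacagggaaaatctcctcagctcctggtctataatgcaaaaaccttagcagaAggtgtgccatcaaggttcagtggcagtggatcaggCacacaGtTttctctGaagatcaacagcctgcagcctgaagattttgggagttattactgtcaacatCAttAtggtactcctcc
Igkv12-41: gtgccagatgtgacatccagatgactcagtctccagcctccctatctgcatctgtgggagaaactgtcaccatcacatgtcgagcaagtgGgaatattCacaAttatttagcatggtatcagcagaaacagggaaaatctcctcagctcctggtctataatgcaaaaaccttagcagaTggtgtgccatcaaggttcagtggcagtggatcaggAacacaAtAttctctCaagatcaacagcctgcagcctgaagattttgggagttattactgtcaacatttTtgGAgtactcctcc

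Igkv5-43 and Igkv5-45 are closer still, at 98.99% identity, with opposite signs of the fold change. Igkv5-43 had fitted levels of 497 normalized counts in Yeti and 1005 in WT in the authors' deposited table (-1.01 ± 0.56, adjusted p = 0.648, DESeq2). Igkv5-45 had 39, 38 and 130 reads in Yeti libraries A, B and C, against 15, 42 and 38 in WT libraries A, B and C. Yeti library C was the highest and the groups overlapped (log2 fold change 1.20 ± 0.65 in the authors' deposited table, adjusted p = 0.610, DESeq2). Neither segment was called, and a difference between them was not tested. Their V exons, on the minus strand at chr6:69823355-69823652 and chr6:69775750-69776047, differ at the 3 bases in capitals, so the split of reads between them is uncertain.
Igkv5-43: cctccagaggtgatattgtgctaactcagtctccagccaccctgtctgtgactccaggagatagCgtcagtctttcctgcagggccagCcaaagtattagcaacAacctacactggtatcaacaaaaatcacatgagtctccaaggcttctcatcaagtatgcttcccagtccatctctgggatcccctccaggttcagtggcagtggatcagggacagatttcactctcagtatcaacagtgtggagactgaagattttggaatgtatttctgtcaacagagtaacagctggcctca
Igkv5-45: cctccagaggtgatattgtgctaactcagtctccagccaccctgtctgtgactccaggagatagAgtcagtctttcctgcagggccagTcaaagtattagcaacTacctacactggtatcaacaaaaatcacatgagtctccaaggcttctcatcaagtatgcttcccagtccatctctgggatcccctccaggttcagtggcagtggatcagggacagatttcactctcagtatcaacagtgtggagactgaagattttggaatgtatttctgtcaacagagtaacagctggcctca

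Across the family, 45 of the 92 segments had another annotated Igkv segment at 95% V exon identity or more. Of these 45, 43 had an adjusted p and 14 were called lower, with a median log2 fold change of -1.68 in the authors' deposited table. Of the other 47 segments, 46 had an adjusted p and 17 were called lower, with a median of -1.93 in the authors' deposited table. Among 21 pairs of segments that were each other's nearest relative, the median absolute difference between the log2 fold changes was 0.84. Igkv3-12 and Igkv3-7 lay closest in fold change, at -2.12 ± 1.39 and -2.10 ± 1.23 in the authors' deposited table, and Igkv3-3 and Igkv3-4 farthest apart, at 2.97 ± 3.67 and -2.93 ± 0.61. Some of these segments were named after their values were seen.

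Reads were recovered for 8 of the 10 segments with the lowest fold changes, all but Igkv6-32 and Igkv12-44. Igkv14-100 had 20, 68 and 15 reads in Yeti libraries A, B and C, against 218, 848 and 357 in WT libraries A, B and C (-3.73 ± 0.65 in the authors' deposited table, adjusted p = 1.43e-06, DESeq2). Igkv12-89 had 3, 23 and 34 reads in the Yeti libraries, against 93, 208 and 488 in the WT libraries (-3.68 ± 0.80 in the authors' deposited table, adjusted p = 0.000428, DESeq2). In both segments every Yeti library lay below every WT library. Igkv4-91 had 20, 153 and 84 reads in the Yeti libraries, against 260, 1088 and 1094 in the WT libraries (-3.21 ± 0.71 in the authors' deposited table, adjusted p = 0.000652, DESeq2). Igkv6-14 had 18, 9 and 99 reads in the Yeti libraries, against 221, 560 and 385 in the WT libraries (-3.11 ± 0.77 in the authors' deposited table, adjusted p = 0.00355, DESeq2). These groups did not overlap either, and Igkv8-34 had 6, 1 and 7 reads in the Yeti libraries, against 38, 102 and 10 in the WT libraries (-3.31 ± 0.92 in the authors' deposited table, adjusted p = 0.0151, DESeq2), where WT library C came close to the Yeti libraries.

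Igkv8-16, Igkv12-98 and Igkv8-18, also among the 10 lowest fold changes, were not called by DESeq2. Igkv8-16 had 4, 34 and 24 reads in the Yeti libraries, against 40, 599 and 8 in the WT libraries (-3.27 ± 1.59 in the authors' deposited table, adjusted p = 0.472, DESeq2). WT library B held most of its reads, and WT library C lay among the Yeti libraries. Igkv12-98 had 7, 66 and 72 reads in the Yeti libraries, against 93, 955 and 369 in the WT libraries (-3.21 ± 1.17 in the authors' deposited table, adjusted p = 0.147, DESeq2), with no overlap. Igkv8-18 had 0, 9 and 2 reads in the Yeti libraries, against 77, 4 and 16 in the WT libraries (-3.03 ± 1.26 in the authors' deposited table, adjusted p = 0.268, DESeq2), with overlap.

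The 5 segments with the smallest SEs were not among the 10 with the lowest fold changes. Igkv4-79 had 18, 33 and 29 reads in the Yeti libraries, against 132, 157 and 75 in the WT libraries, or 27.2 ± 8.1 against 116 ± 35 normalized reads (SD, n = 3 each). All 3 Yeti libraries lay below all 3 WT libraries (-2.10 ± 0.38 in the authors' deposited table, adjusted p = 5.63e-06, DESeq2). Igkv2-109 had 76, 202 and 160 reads in the Yeti libraries, against 370, 495 and 268 in the WT libraries, again without overlap (-1.29 ± 0.39 in the authors' deposited table, adjusted p = 0.0408, DESeq2). The remaining members with the smallest SEs, Igkv5-48, Igkv9-120 and Igkv8-30, fell with log2 fold changes of -1.75 ± 0.35, -1.39 ± 0.38 and -2.26 ± 0.41 in the authors' deposited table.

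Of the 5 segments with a fold change above 0, 0 were called and 2 had no p-value. Igkv3-3 had 0, 96 and 0 reads in the Yeti libraries, against 3, 10 and 0 in the WT libraries, so Yeti library B alone set its log2 fold change of 2.97 ± 3.67 in the authors' deposited table. Igkv1-132 had 26, 0 and 3 reads in the Yeti libraries, against 3, 4 and 1 in the WT libraries, and Yeti library A held most of them. Igkv4-63 had 51, 85 and 199 reads in the Yeti libraries, against 128, 174 and 56 in the WT libraries, with a log2 fold change of 0.02 ± 0.58 in the authors' deposited table. Igkv3-10, whose reads were not recovered, had fitted levels of 875 normalized counts in Yeti and 729 in WT in the authors' deposited table (0.26 ± 1.55, no p-value). Igkv5-45, described above, was the remaining segment.

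Uneven reads between libraries of the same group were common. Igkv3-3, described above, had the largest SE, and Igkv9-123 had 23, 0 and 0 reads in the Yeti libraries, against 20, 163 and 5 in the WT libraries. Igkv5-37 had 0, 74 and 111 reads in the Yeti libraries, against 409, 12 and 158 in the WT libraries. In both, the groups overlapped. In 47 of the 57 segments with recovered reads, a single Yeti library held more than 50% of the Yeti normalized reads. In 34 of 57 a single WT library held more than 50% of the WT normalized reads. Summed over the 57, libraries A, B and C held 12.7%, 44.9% and 42.4% of the Yeti reads. In WT they held 20.6%, 45.0% and 34.4%. The 2 counts therefore also reflect the library totals, and the share over all recovered genes was not computed. For 46 segments with a mean between 79.9 and 531, the quartiles of the family, the median SE was 0.75, against 0.23 for 4892 other genes in the same range of means in the authors' deposited table. The between-library coefficient of variation derived from these SEs had a median of 0.63 for the segments and 0.18 for the other genes.

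Summed over the 57 segments, the normalized reads were 1221, 4325 and 4082 in Yeti libraries A, B and C, against 7258, 15841 and 12128 in WT libraries A, B and C. The mean was 3209 ± 1726 in Yeti and 11742 ± 4304 in WT (SD, n = 3 each), which is 3.66-fold higher in WT, and the groups did not overlap. Yeti library A was the lowest of the Yeti libraries in 40 of 57 segments and the highest of them in 5. It was the lowest of all 6 libraries in 39. WT library B was the highest of all 6 in 27 segments and WT library C in 16, whereas a Yeti library was the highest in 7. The fall in the sum of these 57 was not set by Yeti library A alone. The log2 ratio of the sums was -1.87 with all libraries, -1.48 without Yeti library A, -1.85 without WT library C and -1.59 without WT library B.

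**Figure D2:**
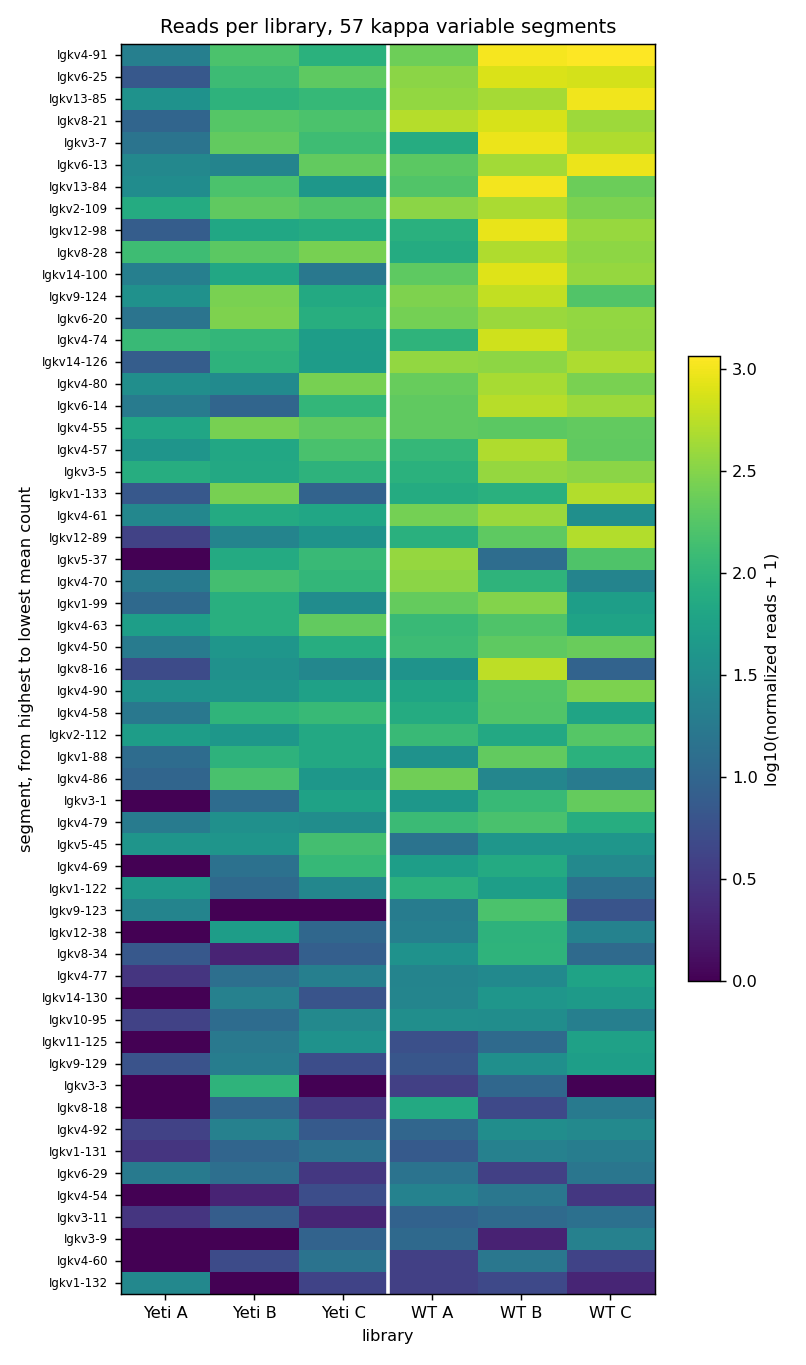
Normalized reads per library, as log10(reads + 1), of the 57 kappa V segments whose reads were recovered, one row per segment from the highest to the lowest mean count, with the 3 Yeti libraries left of the white line and the 3 WT libraries right of it. The Yeti A column is the darkest, with 11 of 57 segments at 0 reads, and most of the brightest cells lie in WT B and WT C.

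Segment by segment, 19 of the 57 had every Yeti library below every WT library, and 0 had the reverse. Above a mean of 200, acceptance depended on how many read sets fitted the mean, which were fewer where the Yeti level was low. The recovered segments there therefore lean towards large falls, and no share over all genes was computed for that range. Over the 40 segments with a mean under 200, all recovered, every Yeti library lay below every WT library in 9 segments (22.5%), against 7.78% of the 9059 recovered genes of that range. The reverse was seen in 0 of the 40 segments, against 5.6% of the recovered genes. The count and its background both depended on which libraries were compared. It was 10 segments without Yeti library A (17.1% of the recovered genes), 15 without Yeti library B (11.8%) and 16 without Yeti library C (13.7%). It was 15 without WT library A (12.9%), 12 without WT library B (12.9%) and 15 without WT library C (11.7%). Of the 40, 38 had an adjusted p and the authors' DESeq2 called 6 lower. A limma fit to log2 of the normalized reads plus 1 over the 9059 genes, added after the data were seen, called 0 of the 40 lower at an adjusted p under 0.05, with 0.0773% of all genes in that fit called lower. In the same fit 15 of the 40 were lower and 0 higher at an unadjusted p under 0.05, against 4.86% of all genes lower, and the smallest adjusted p of the 40 was 0.0670. In that fit 37 of the 40 had a log2 fold change below 0. Without 1 library, limma called 1 of the 40 without Yeti library A (0.408% of all genes lower) and 1 without WT library A (0.0442%). It called 0 of the 40 without Yeti library C (0.0331%), WT library B (0.011%), Yeti library B or WT library C (0.0% each). The calls among the less abundant segments therefore depended on the test.

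The J segments, Igkj1 to Igkj5, all had a log2 fold change below 0, and 0 of the 5 were called by DESeq2. Igkj1 had 3, 17 and 15 reads in Yeti libraries A, B and C, against 30, 72 and 38 in WT libraries A, B and C (-1.92 ± 0.65 in the authors' deposited table, adjusted p = 0.0867, DESeq2). Igkj5 had 20, 58 and 119 reads in the Yeti libraries, against 140, 253 and 158 in the WT libraries (-1.39 ± 0.59 in the authors' deposited table, adjusted p = 0.293, DESeq2). Igkj2, Igkj3 and Igkj4 had log2 fold changes of -1.40, -1.77 and -1.51 in the authors' deposited table. All 5 were lower at an unadjusted p under 0.05, against 4.0% of all genes tested. In Igkj1 and Igkj5 no Yeti library reached the lowest WT library, and Yeti library A was again the lowest.

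The constant gene Igkc, which every kappa transcript shares, had fitted levels of 21683 normalized counts in Yeti and 76522 in WT in the authors' deposited table (-1.82 ± 0.53, adjusted p = 0.0278, DESeq2). The summed fitted level of the 92 segments was 16194 normalized counts in Yeti and 59494 in WT, a log2 ratio of -1.88. In counts, not per length, the V segments together came to 74.7% of the Igkc level in Yeti and 77.7% in WT. The difference between these log2 values was not tested.

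The makeup of the kappa pool was described by each segment's share of the summed fitted counts. The 10 segments with the largest shares held 43.1% of the pool in Yeti and 44.8% in WT. The largest share was that of Igkv1-135 in Yeti, at 6.31%, and of Igkv1-117 in WT, at 7.15%. The effective number of segments, which is the number of equally used segments with the same concentration (inverse Simpson index), was 36.5 in Yeti and 34.2 in WT. Among the 57 recovered segments, which leave out the most abundant ones, it was 21.8, 27.3 and 29.0 in Yeti libraries A, B and C. It was 29.1, 26.8 and 22.9 in WT libraries A, B and C, and the groups overlapped. Across the same segments the Spearman correlation of reads between libraries was 0.42 to 0.58 within Yeti, 0.38 to 0.66 between a Yeti and a WT library, and 0.63 to 0.73 within WT. These segments share libraries and differ in depth, so the values are a description.

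By subfamily, the summed fitted level was lower in Yeti in all 17 subfamilies with a segment, and 14 of them had at least 1 segment called lower. Subfamily 4, with the most segments, had 6 of 23 called lower and a median log2 fold change of -1.62 in the authors' deposited table. Its most abundant segment, Igkv4-53, had fitted levels of 224 normalized counts in Yeti and 1264 in WT in the authors' deposited table. Subfamily 1 held the largest part of the pool, with 19.2% of the summed fitted counts in Yeti and 20.3% in WT, and 3 of its 8 tested segments were called lower. Subfamily 6 held 12.5% of the pool in Yeti and 16.2% in WT, with 3 of 9 segments called lower.

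The small subfamilies held both called and uncalled segments. Both segments of subfamily 17 were called lower, led by Igkv17-127 at 231 normalized counts in Yeti and 1691 in WT in the authors' deposited table. Igkv15-103, the single segment of its subfamily, had 168 in Yeti and 1147 in WT in the authors' deposited table (-2.77 ± 0.46, adjusted p = 3.18e-07, DESeq2). Igkv13-85 had 35, 94 and 105 reads in the Yeti libraries, against 402, 471 and 943 in the WT libraries, and fell with a log2 fold change of -2.91 ± 0.51 in the authors' deposited table. At the other end, the single segments of subfamilies 11, 16 and 19 were not called: Igkv11-125, Igkv16-104 and Igkv19-93 had log2 fold changes of -0.47 ± 1.29, -1.16 ± 0.51 and -1.28 ± 0.44 in the authors' deposited table. Igkv14-111, the most abundant of subfamily 14, had 466 in Yeti and 1227 in WT in the authors' deposited table and was not called (adjusted p = 0.0827, DESeq2).

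**Figure D3:**
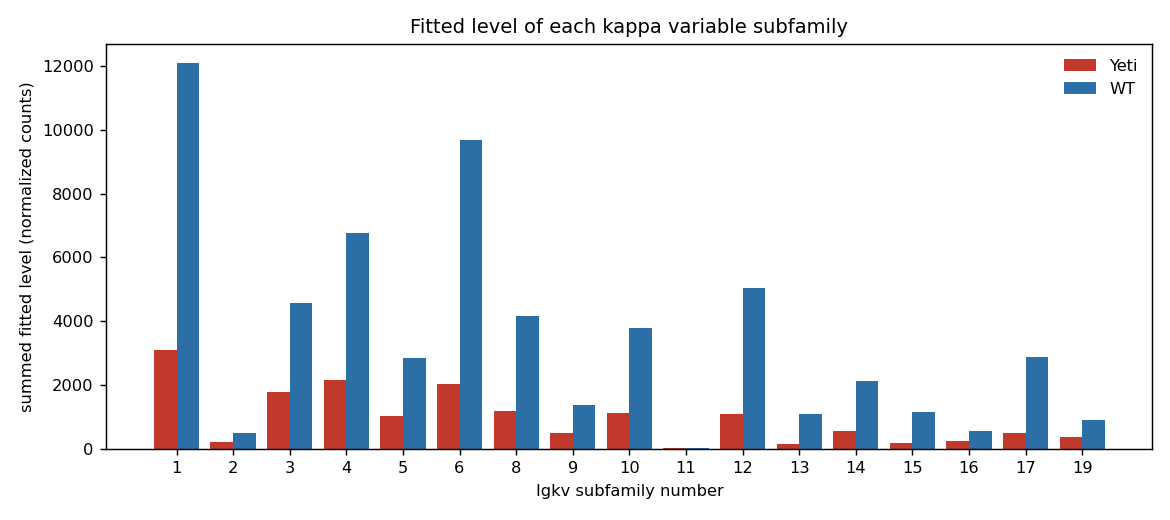
Summed fitted level in normalized counts of each Igkv subfamily, Yeti (red) left of WT (blue), with the subfamily number on the x axis and no error bars, since the levels follow from the authors' mean and fold change. In all 17 subfamilies the Yeti bar is the shorter, and subfamilies 1 and 6 are the tallest in WT.

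Segments called lower were found along the whole locus. Distances to Igkc (chr6:70726435-70726966, plus strand, GRCm38) ran from 22.6 to 3116 kb. Of segments under 1 Mb from Igkc, 12 of 35 tested were called lower with a median log2 fold change of -1.93 over the 37 there. Between 1 and 2 Mb, 8 of 28 were called with a median of -1.64, and beyond 2 Mb, 11 of 26 were called with a median of -1.60 over 27. The Spearman correlation between fold change and distance over the 92 segments was 0.094, given as a description. By orientation, 12 of 33 tested segments on the plus strand and 19 of 56 on the minus strand were called lower, with medians of -1.88 and -1.67. The 3 segments annotated as pseudogenes, Igkv4-77, Igkv4-60 and Igkv3-11, all had a fold change below 0, and 0 of them were called by DESeq2.

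**Figure D4:**
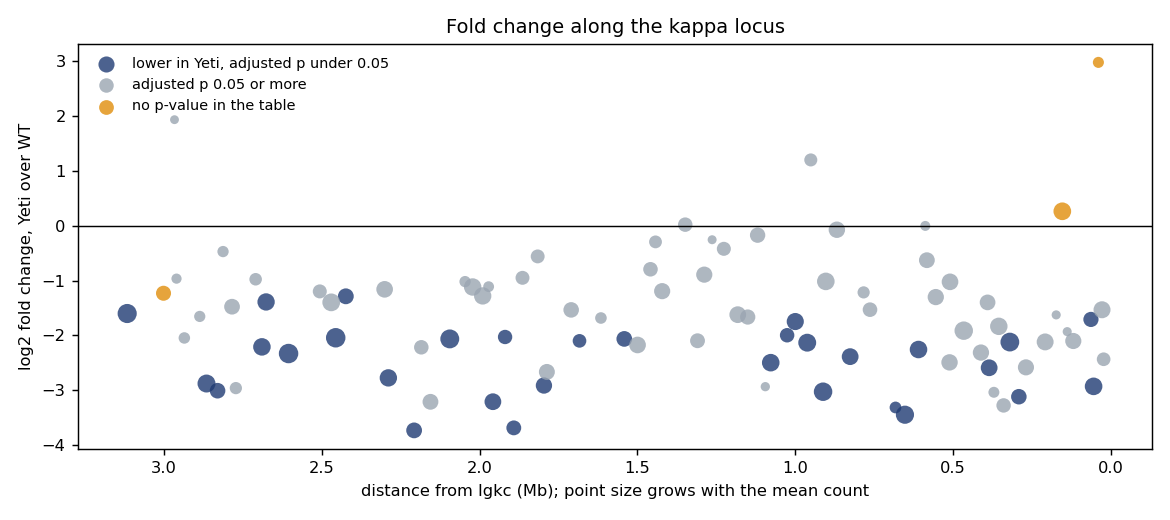
Log2 fold change, Yeti over WT, of the 92 kappa V segments in the authors' deposited table against the distance from Igkc in Mb, with point size growing with the mean count. Called segments (dark) are found along the whole span from near Igkc to beyond 3 Mb, between -1.29 and -3.73.

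The heavy chain variable segments (Ighv) gave a similar count under the same rule: 32 of 97 were called lower (33.0%) and 0 higher by DESeq2, with 59 lower and 1 higher at an unadjusted p under 0.05, and their summed fitted level was 13463 normalized counts in Yeti and 46359 in WT. Of 3 lambda variable (Iglv) segments, 0 were called by DESeq2 and 2 were lower at an unadjusted p under 0.05, with sums of 1634 normalized counts in Yeti and 3516 in WT. A difference between the kappa, heavy and lambda segments was not tested.

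In the list of plasma cell markers, genes of antibody-secreting cells, 4 of 15 were called lower and 0 higher by DESeq2, against 0.994% of all genes tested that were called lower. At an unadjusted p under 0.05, 10 were lower and 0 higher, all 15 had a fold change below 0 and none was at 0 counts. Their summed fitted level was 34165 normalized counts in Yeti and 68123 in WT. Those called were Jchain, the joining chain of secreted IgA and IgM (-1.98 ± 0.51), the plasma cell chaperone gene Mzb1 (-1.75 ± 0.55), the endoplasmic reticulum degradation gene Derl3 (-1.85 ± 0.46) and Tnfrsf17, the receptor BCMA (-2.54 ± 0.53), all in the authors' deposited table. Among the 11 not called, Xbp1, a transcription factor of secretory cells, had a log2 fold change of -0.05 ± 0.13 in the authors' deposited table. Creld2, Slamf7 and Txndc5 had -0.17 ± 0.19, -0.39 ± 0.51 and -0.39 ± 0.16 in the authors' deposited table. Tnfrsf17 had 26, 101 and 84 reads in Yeti libraries A, B and C, against 253, 628 and 407 in WT libraries A, B and C. The order of libraries within each group was that of the summed reads of the recovered kappa segments. Jchain had fitted levels of 7247 normalized counts in Yeti and 28640 in WT in the authors' deposited table, and the part of plasma cell number in the kappa result was not tested.

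In the B cell list, 0 of 12 genes were called by DESeq2, against 0.994% of all genes tested that were called lower. The SEs of the list ran from 0.59 to 1.02, so a fall of less than 2-fold could not have been called. All 12 had a fold change below 0, and the summed fitted level was 10662 normalized counts in Yeti and 20113 in WT. A difference between this list and the plasma cell list was not tested. Cd79a, a signalling chain of the B cell receptor and the most abundant of the list, had 1970 in Yeti and 3810 in WT in the authors' deposited table (-0.95 ± 0.60, adjusted p = 0.765, DESeq2). At an unadjusted p under 0.05 the list had 1 gene, Cd79b, a further signalling chain of that receptor, against 4.0% of all genes tested that were lower. Of the heavy chain constant genes, 1 of 8 was called: Igha, the constant gene of IgA, had 42770 in Yeti and 203853 in WT in the authors' deposited table (-2.25 ± 0.53, adjusted p = 0.00182, DESeq2). The fold change was below 0 in 5 of the 8. Ighg2c, an IgG constant gene, was not called and had 4970 in Yeti and 1616 in WT in the authors' deposited table (1.62 ± 0.67, adjusted p = 0.265, DESeq2). Ighg2b and Ighg3, also IgG constant genes, were not called and had log2 fold changes of 0.85 ± 1.28 and 0.66 ± 0.91 in the authors' deposited table. Of the light chain constant genes, Igkc alone of 4 tested was called.

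A further list held genes of light chain recombination and kappa transcription. In that list, 0 of 16 tested genes were called by DESeq2, against 2.84% of all genes tested that were called in either direction. With so few genes, the lack of a call says little about them. The most abundant, the NF-κB subunit gene Nfkb1, had 4987 in Yeti and 4573 in WT in the authors' deposited table (0.12 ± 0.19, adjusted p = 0.999, DESeq2). Rag1 and Dntt, also of the list, had no p-value. Their log2 fold changes were -3.23 ± 1.35 and -3.45 ± 1.51 in the authors' deposited table, with most of their reads in WT library C. At an unadjusted p under 0.05, Irf4, Vpreb3 and Rag2 were lower and Irf8 and Spi1 higher in the authors' deposited table. Over all genes tested, 4.0% were lower at that level. Rag2 had 0, 1 and 3 reads in the Yeti libraries, against 3, 2 and 35 in the WT libraries, so WT library C held most of them. Vpreb3, a gene of developing B cells, had 30, 64 and 98 reads in the Yeti libraries, against 105, 209 and 174 in the WT libraries. In the T and NK cell list, 0 of 9 tested genes were called by DESeq2, against the same 2.84% of all genes. At an unadjusted p under 0.05, 4 were lower and 1 higher, against 4.0% of all genes tested that were lower. Cd4, the most abundant, had 234 in Yeti and 706 in WT in the authors' deposited table (adjusted p = 0.123, DESeq2). The excess of Dntt, Rag1 and Cd3e reads in WT library C was not matched in the sum of the recovered kappa segments, which was highest in WT library B. The part of this excess in the result was not tested.

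**Figure D5:**
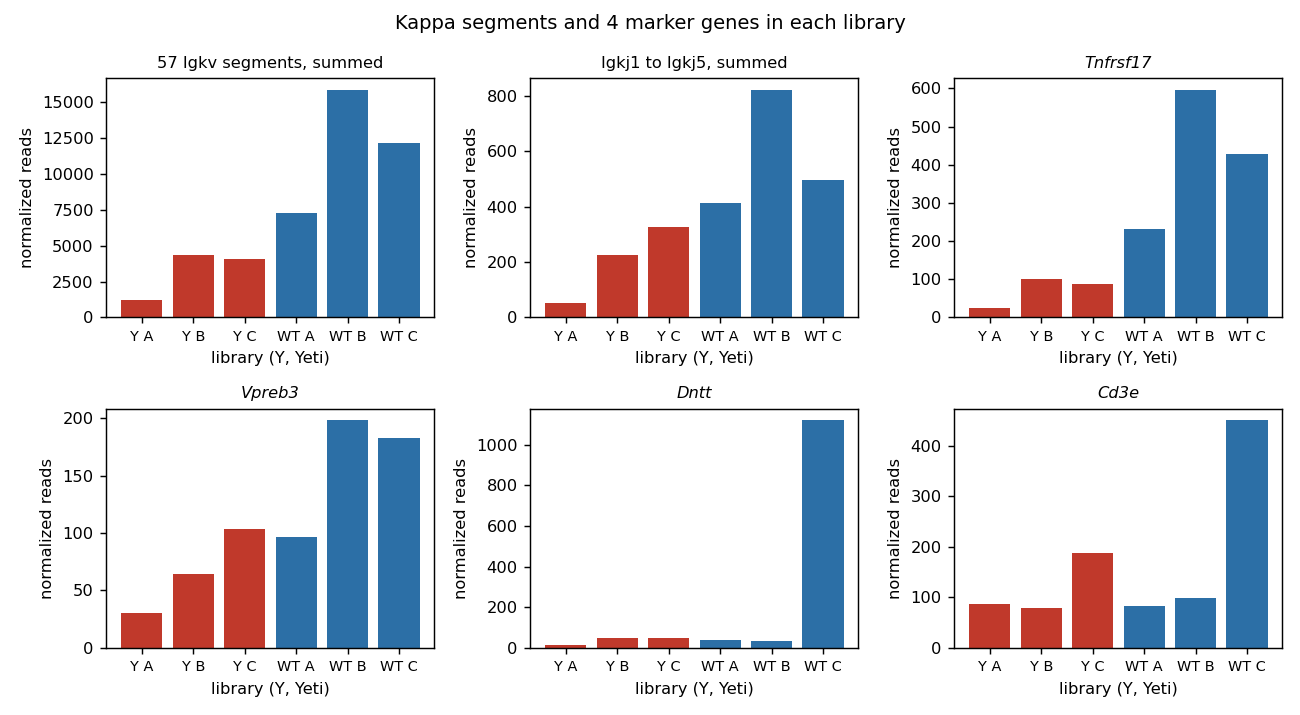
Normalized reads in each library of the 57 summed kappa V segments, the 5 summed joining segments, Tnfrsf17, Vpreb3, Dntt and Cd3e, with Yeti libraries A to C (red) left of WT libraries A to C (blue) and bars starting at 0. Yeti A is lowest for the kappa V and J sums and Tnfrsf17, WT B is highest for them, and Dntt and Cd3e peak in WT C.

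At the edge of the rule, the rows just inside the mean of 5 were Igkv1-132, Igkv4-60 and Igkv3-9, at 6.12, 6.48 and 6.76 normalized counts, with log2 fold changes of 1.93, -0.26 and -1.93 in the authors' deposited table. The rows just outside it were Igkv18-36, Igkv4-81 and Igkv11-106, at 4.35, 4.63 and 4.67, with -2.92, -2.52 and -4.63 in the authors' deposited table. The 24 rows left out summed to 52.8 normalized counts, and those 92 kept summed to 37844.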

How the data were processed

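RNA of 6 libraries was measured by bulk RNA-seq, 3 Yeti and 3 WT, grouped by the sample titles. Per the submitters' processing notes, FastQC, STAR and DESeq were used and the builds are GRCm38 and mm10. Tool versions, the counting tool, strandedness and gene annotation were not given in the sources used here. A single deposited table holds the authors' DESeq2 comparison. Its mean is a signal, the mean over libraries of counts scaled by size factors, per the file headers. The log2 fold change and its SE, the Wald statistic (a score), and the p-value and adjusted p-value are the authors' values, per the file headers. The direction, Yeti over WT, is that of the table's name. A total of 0 further columns of values per sample were left out.

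Fitted group levels were derived from the mean and fold change of each gene for equal groups. Reads per library were recovered as follows, a step added after the table was seen. The size factors follow from 21 distinct means of genes with 2 reads, and the group of each library from the sign of these genes' fold changes in the authors' own fit. For each gene, all sets of 6 whole read numbers giving the printed mean were listed, the dispersion that gives the printed SE was solved, and the authors' DESeq2 fit was recomputed for each set. A set was accepted where it alone gave the authors' printed log2 fold change within 1e-09 and fewer than 0.05 chance matches were expected. Of 75 segments tried (mean up to 700), 57 were accepted; for the others no reads are given. The procedure was tested on simulated data. These were drawn from the less abundant segments, and their values were computed with the same fit formulas. The test therefore covers neither the more abundant segments nor a departure of these formulas from the authors' fit. Recovered reads are counts of reads, not of molecules, and SDs over 3 libraries cover the spread between these libraries, which nothing in the labels states to be separate animals.

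limma 3.58.1 (R 4.3.3, trended variance, pseudocount 1) was run on the recovered reads of 9059 genes with a mean of 5 to 200. edgeR, which the design named for a table of counts, was not used, since the table holds none, and the authors' test is the main one. Positions, biotypes and transcript sequences came from GENCODE release M21 (GRCm38), matched through Ensembl identifiers for 92 of 92 segments. V exon identity was computed from global alignments (Biopython 1.88). The segments, gene lists and the rule for named segments were chosen with earlier results of these data known. The rule names the 10 highest means, the 10 lowest and 5 highest fold changes, the most abundant of each subfamily, the 3 rows on each side of the minimum, the 5 smallest and 3 largest SEs, Igkc, the Igkj segments, Jchain, and per list the called genes and the most abundant; any other gene named was picked with its values in view.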

Additional observations from a re-analysis of the deposited data

How the results depend on the processing

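The 31 calls of lower segments became 28 when the adjustment ran over every gene that has a p-value, which ended the calls of Igkv1-135, Igkv2-109 and Igkv4-74. The count was 35 at an adjusted p under 0.1 and 22 under 0.01. It was 31 with a 2-fold minimum, which given the SEs could end no call. With mean minimums of 10 and 50 it was 31 and 30, with no minimum 31 and without pseudogenes 31. Without segments of at least 95% identity to another it was 17, with fewer segments counted (47). In none of these settings was a segment called higher. The median log2 fold change lay between -2.01 (mean minimum of 50) and -1.73, and the summed level without Igkv1-110 had a log2 ratio of -1.87. Among the 40 segments with a mean under 200, the authors' test called 6, limma on recovered reads 0, and limma without each library in turn 0 to 1. Leaving out each library in turn, the median log2 ratio of the 57 recovered segments (-1.66) ran from -2.19 to -1.35 and the log2 ratio of their sums from -2.15 to -1.48. The count of segments of mean under 200 with all Yeti libraries below all WT libraries was 9, and 10 to 16 with a library left out: 15 without Yeti B, 16 without Yeti C, 15 without WT A and 15 without WT C (11.7% to 17.1% of the recovered genes), since fewer libraries must then stay apart. No paired analysis was possible because the table carries no replicate numbers. Leaving out replicates from the authors' own test was not run, as the table holds no values per library. The uncertain assignment of reads between near-identical segments and the number of libraries limit these values.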
